A study of Mus musculus with 18 samples.

Results

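The genes described here are 10 components of MHC class I antigen presentation: H2-K1, H2-D1, B2m, Tap1, Tap2, Tapbp, Psmb8, Psmb9, Erap1 and Nlrc5. They were chosen by symbol, and each symbol matched 1 row of a count table of 48440 gene identifiers. All 10 passed the filter on low counts in every comparison. RNA came from CD45+ immune cells of the livers of wild-type mice of the C57BL/6J strain, whose age at purchase was 7 weeks. Every mouse, untreated or treated, carried liver tumours raised by Ras and Myc plasmids, delivered by hydrodynamic injection into the tail vein, which carries DNA into hepatocytes. Treated mice received poly(I:C) at 4 mg/kg, which mimics viral double-stranded RNA, with 200 µg of anti-PD-L1, an antibody that blocks a ligand of the T cell checkpoint PD-1. Dosing was every other day for 6 doses. The dosing protocol also lists an antibody against VEGF-A, which the treatment labels of these libraries do not name. Sorting gave a CD3+CD8+, a CD3+CD8- and a double-negative (CD3-CD8-) fraction, which with the 2 treatments gives 6 groups of 3 libraries, 18 in all. The labels do not say how many mice gave a library or whether a shared number in library names marks 1 mouse, so p-values measure the spread between these libraries.

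MHC class I molecules show peptides from inside a cell to CD8+ T cells and NK cell receptors on its surface. The proteasome cuts proteins into peptides, the TAP transporter carries these into the endoplasmic reticulum, tapasin helps load them, and ERAP1 trims them to length. H2-K1 and H2-D1 encode the classical heavy chains of the K and D loci, and B2m encodes beta-2 microglobulin, the invariant light chain. Psmb8 and Psmb9 encode catalytic subunits that replace their constitutive counterparts in the immunoproteasome, a form common in leukocytes and in cells exposed to interferon gamma. NLRC5 is a transactivator that acts with an enhanceosome on the promoters of class I genes.

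Of the 10 genes, 7 lie within 1.352 Mb of chromosome 17, in the mouse MHC (positions from the FPKM table, matched to GENCODE vM21 on GRCm38, and counted from 1). They run from Tapbp (chr17:33915899-33929288) and H2-K1 (chr17:33996017-34000333) to H2-D1 (chr17:35262730-35267499). Between these, Psmb9 (chr17:34181988-34187764), Tap1 (chr17:34187553-34197225), Psmb8 (chr17:34197721-34201454) and Tap2 (chr17:34203527-34216321) stand together within 34.3 kb. The Psmb9 and Tap1 loci lie on opposite strands and share 212 bases. Whether the authors' counting used the strand is not given in the sources used here, so reads from those bases cannot be told apart. B2m (chr2:122147686-122153083), Nlrc5 (chr8:94472763-94527272) and Erap1 (chr13:74639872-74691875) lie elsewhere. The heavy chain genes also share sequence with their relatives: 8.79% of the 50-base windows of the H2-K1 transcripts and 14.3% of those of H2-D1 stand in another gene as well, against 0% for B2m, Psmb8, Psmb9, Nlrc5 and Erap1. Reads from such windows may belong to either gene, and how far this changes the values of H2-K1 and H2-D1 was not tested.

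Promoters of class I genes carry an NF-kB element, an interferon-stimulated response element (ISRE) and, nearer the start, the X and Y boxes that NLRC5 and its partners use. RefSeq promoter windows (GRCm38.p6, 250 bases before to 50 after a start) were found for 8 of the 10 genes, not for Tap2 and Nlrc5. The stretches below are shown because they set the near-identical heavy chain promoters beside those of B2m, the light chain, and Erap1, the gene that passed a test below. Each is 120 bases, 5′ to 3′ on the strand of its gene. H2-K1 is chr17:34000348-34000467 on the minus strand, and on the plus strand H2-D1 is chr17:35262914-35263033, B2m is chr2:122147538-122147657 and Erap1 is chr13:74639733-74639852. Capitals mark letter matches to 5 motifs searched on both strands: GGGATTCCC (NF-kB core), GAAANNGAA (ISRE core), TTCNNNGAA (the STAT site GAS), TGACG (part of the X2 box) and ATTGG (an inverted CCAAT, as in the Y box).
H2-K1: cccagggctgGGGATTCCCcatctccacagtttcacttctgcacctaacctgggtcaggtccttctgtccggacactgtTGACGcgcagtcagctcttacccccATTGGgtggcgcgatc
H2-D1: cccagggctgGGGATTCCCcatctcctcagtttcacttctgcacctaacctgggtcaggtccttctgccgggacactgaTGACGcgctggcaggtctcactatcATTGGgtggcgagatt
B2m: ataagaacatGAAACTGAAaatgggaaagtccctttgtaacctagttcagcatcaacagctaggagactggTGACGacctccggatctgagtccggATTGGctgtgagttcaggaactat
Erap1: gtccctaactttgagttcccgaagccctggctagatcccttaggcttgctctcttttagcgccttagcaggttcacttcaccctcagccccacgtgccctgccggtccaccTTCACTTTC

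The H2-K1 and H2-D1 stretches, aligned without gaps at the NF-kB core, had the same base at 107 of 120 positions (89.2%). Both held the NF-kB core, TGACG and ATTGG in the same order. The NF-kB core was searched as the exact run GGGATTCCC, which stood in 0.353% of all 32851 promoter windows. Of the 8 genes only these 2 held it. Other forms of an NF-kB site were not searched, so this is not the share of promoters with such a site. TGACG stood in 20.8% and ATTGG in 37.4% of all windows, so short matches of this kind are common. Of the 8 genes, 5 held both TGACG and ATTGG on either strand: H2-K1, H2-D1, B2m, Tap1 and Psmb9. The Tap1 and Psmb9 windows share 275 bases on opposite strands, and their TGACG and ATTGG matches are the same bases, counted once for each gene. The ISRE core (8.56% of all windows) matched in B2m and on the reverse strand in Erap1. In Erap1 a further match overlaps the first and runs past the start. This core was searched only in the spacing GAAANNGAA, and other spacings or forms of an ISRE were not searched. The absence of a match, as in H2-K1 and H2-D1, therefore does not show that a promoter lacks an ISRE. GAS (8.3% of all windows) matched in Psmb8 alone among the 8. A match is a run of letters and not a measured site.

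Library totals ran from 1829155 to 28233682 counts. In 3 libraries, untreated CD3+CD8+ replicates 1 and 18 and treated CD3+CD8- replicate 2, 79.7% to 87.0% of counts lay on 5 ribosomal RNA loci, against 0.35% to 2.26% in the other 15. In these 3, few counts are left for low genes: Tap2 had 7 and Psmb9 12 counts in untreated CD3+CD8+ replicate 18. The column headers carry a mark read here as lane 2 or lane 3, and every group holds libraries of both. All 3 libraries rich in ribosomal counts are of lane 3, and so is untreated CD3+CD8- replicate 6. The library labelled untreated CD3+CD8- replicate 6 goes against its label, since the summed level of its CD8 T cell markers (Cd8a and Cd8b1) was 1191 CPM (counts scaled to library size), against 22.86 and 23.35 CPM in the other libraries of its group. T cell transcripts were also present in cells sorted as CD3-CD8-, where the 5 T cell markers summed to 466.3 to 1194 CPM untreated and 2247 to 3235 CPM treated. The treated CD3+CD8+ and CD3+CD8- libraries had 2506 to 3041 and 1353 to 2544 CPM of these markers. The CD8 T cell markers summed to 767.1 to 1420 CPM in treated CD3-CD8- libraries, against 23.02 to 46.35 CPM in treated CD3+CD8- libraries. The treated CD3-CD8- libraries thus go against their label in part. The 5 neutrophil markers summed to 2664 to 29880 CPM over the CD3+CD8- libraries. The mean GC content of genes, weighted by their counts, ran from 43.86% to 48.72% over the libraries. In CD3-CD8- cells it was 45.72% to 48.72% in untreated and 44.94% to 46.83% in treated libraries, ranges that overlap.

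All 10 genes were expressed in all 6 groups, and most of the levels of a gene overlapped between groups. Per transcript length (FPKM, over the 15 libraries not rich in ribosomal counts), B2m ranked first, H2-K1 next and H2-D1 after it in every library. Their median FPKM were 5104.5, 1198.6 and 572.0. The immunoproteasome genes came next, with 169.9 for Psmb8 and 76.7 for Psmb9. Psmb9 FPKM was listed at 0 in treated CD3+CD8+ replicate 2 although 348 reads were counted there. Tapbp (54.1), Tap1 (51.7), Nlrc5 (46.8) and Erap1 (32.6) followed, and Tap2 was lowest at 23.1 and ranked last in 9 of the 15 libraries.

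**Figure D1:**
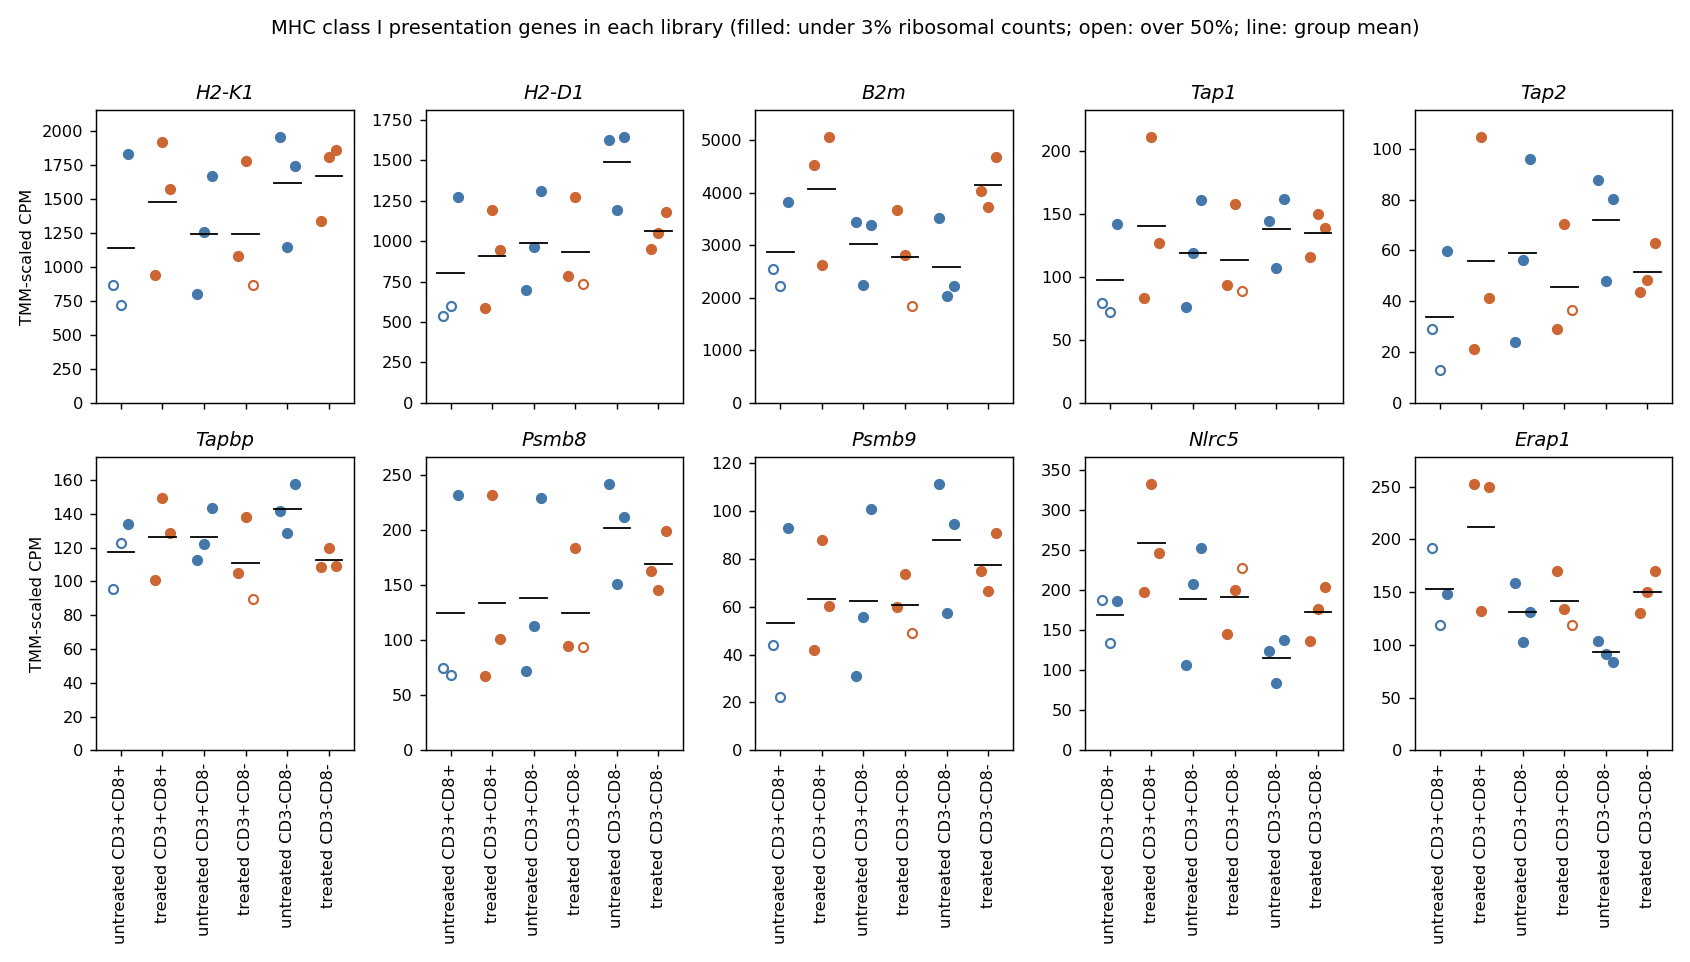
TMM-scaled CPM (counts scaled to library size, linear axis) of the 10 genes in each library, by group; each point is a library, the line is the group mean, blue is untreated and orange treated, and open points mark the 3 libraries in which over 50% of counts lay on ribosomal RNA loci. With the groups of a gene ordered by mean, libraries of neighbouring groups overlap, except for H2-D1 in untreated against treated CD3-CD8- cells. The H2-D1, B2m, Tapbp and Erap1 libraries of the CD3-CD8- fraction separate by treatment.

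Levels below are CPM after TMM scaling over the 18 libraries and compare a gene between libraries, not genes with each other. Mean levels of H2-K1 ranged over the 6 groups from 1139 ± 603.5 CPM (SD, n = 3) in untreated CD3+CD8+ to 1670 ± 289.4 CPM in treated CD3-CD8- cells, a 1.47-fold span. The mean of H2-D1 ran from 803.5 ± 407.2 CPM in untreated CD3+CD8+ to 1487 ± 255.5 CPM in untreated CD3-CD8- cells. B2m had both its lowest and its highest mean in the CD3-CD8- cells: 2590 ± 804.2 CPM without treatment and 4149 ± 493.7 CPM with it. The span of group means was widest for Erap1 (2.28-fold), Nlrc5 (2.25-fold) and Tap2 (2.12-fold) and narrowest for Tapbp (1.29-fold). With the groups of each gene put in order of their means, the libraries of neighbouring groups overlapped in every case except 1, H2-D1 in untreated against treated CD3-CD8- cells.

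The 7 genes of chromosome 17 tended to be high in the same libraries. H2-K1 reached 1961 CPM in untreated CD3-CD8- replicate 1 and was lowest, at 722.1 CPM, in untreated CD3+CD8+ replicate 18, one of the libraries rich in ribosomal counts. Psmb8 ran from 67.09 to 242 CPM and Tap1 from 72.4 to 211.6 CPM. Over the 18 libraries the 21 pairs among these 7 genes had a Pearson correlation of log2 CPM between 0.53 and 0.95, with a median of 0.88. The 24 pairs that involve B2m, Nlrc5 or Erap1 had correlations between -0.54 and 0.71, with a median of 0.06. The highest of these was that of B2m with Erap1. With the group means taken out, the 21 pairs had correlations of 0.58 to 0.97. Nlrc5 then followed the 7 genes as well, with correlations of 0.42 to 0.82 against 0.01 to 0.43 over all libraries. B2m and Erap1 did not, with correlations to the 7 genes of -0.44 to 0.30. These are descriptions over 18 libraries that differ in depth and base composition, and they carry no test. The 7 genes also share a high transcript GC content, 55.3% to 57.3%, whereas Nlrc5 has 52.6%, Erap1 41.5% and B2m 41.2%.

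**Figure D2:**
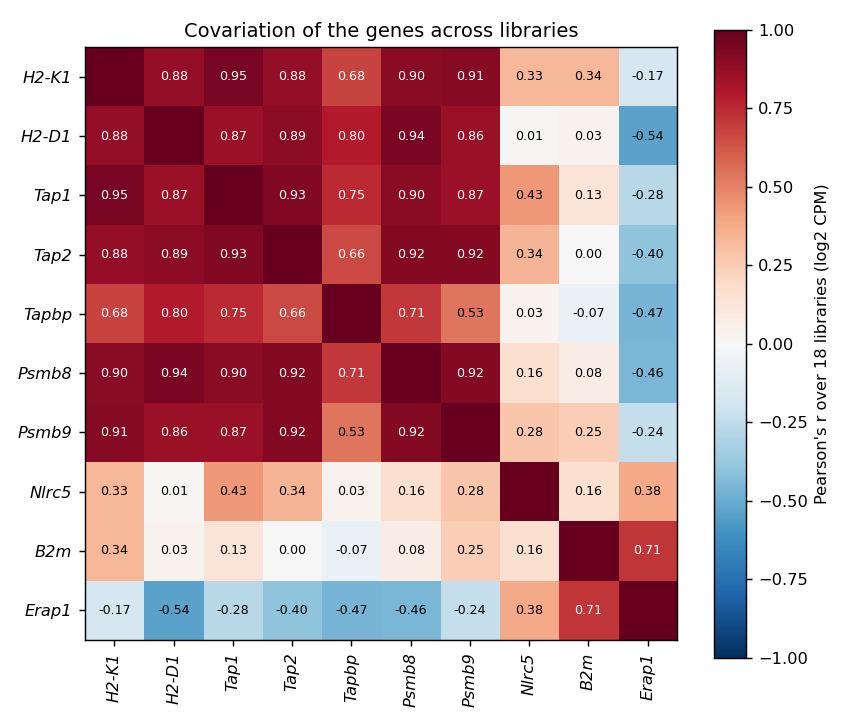
Pearson correlation of log2 CPM over the 18 libraries for each pair of the 10 genes (colour scale from -1 to 1, values printed). The 7 genes of chromosome 17 form 1 block of positive values from 0.53 to 0.95, and Nlrc5, B2m and Erap1 have lower values with its genes; the group means are not taken out here.

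By the same measure, the genes whose profile was most like the mean profile of the 10 were Acsbg1 (r = 0.95), Pygb (0.94), Tbx21 (0.94), Pelo (0.94) and Tbc1d10c (0.93), out of 11420 genes ranked over 18 libraries. Their transcript GC content was 54.5% to 59.3%. Those most like Nlrc5 were Ubash3a (0.92), Plcg1 (0.90) and Nlrc3 (0.90).

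In CD3-CD8- cells, the fraction with the B cell markers, Erap1 was higher after treatment, and by edgeR it was the 1 gene of the 10 that passed. DESeq2 called 4 of the 10 (3 higher, 1 lower) and limma voom 5 (2 higher, 3 lower). They called 5479 and 6399 of the 13781 genes tested, so 4 and 5 of 10 lie near their backgrounds. By edgeR, among all genes tested in this comparison 25.6% passed (10.2% higher and 15.3% lower in treated), so 1 of 10 lies below the background. Erap1, the trimming aminopeptidase of the endoplasmic reticulum, had 103.2, 83.63 and 91.37 CPM in untreated replicates 1, 5 and 18. It had 130.1, 170.3 and 150.4 CPM in treated replicates 11, 2 and 19. Every treated library lay above every untreated one. The log2 fold change was 0.67 (SE 0.17, Benjamini-Hochberg adjusted p = 0.0294 by edgeR's quasi-likelihood test).

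That call was lost with a correction for base composition and without some single libraries. With all genes tested in this fraction split into 4 equal groups by transcript GC content, the median log2 fold change was 0.44 in the group of lowest GC, 0.13 and -0.22 in the next, and -0.78 in the group of highest GC (54% and above). Erap1 stands in the first group. With each library corrected for GC content, its log2 fold change was 0.19 (SE 0.14, edgeR adjusted p = 0.454). The call was also lost in 4 of 6 fits that leave out 1 library: without untreated replicate 5 (adjusted p = 0.108), untreated replicate 18 (0.061), treated replicate 2 (0.0743) or treated replicate 19 (0.0832).

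The heavy chains and the light chain did not move together in CD3-CD8- cells. H2-D1 levels were 1623, 1646 and 1193 CPM without treatment (replicates 1, 5 and 18) and 950.5, 1181 and 1047 CPM with it (replicates 11, 2 and 19), with no overlap. Its log2 fold change of -0.51 (SE 0.21) did not pass (edgeR adjusted p = 0.111). H2-K1 had 1961, 1747 and 1146 CPM untreated and 1338, 1863 and 1810 CPM treated, which overlap (log2 0.03, SE 0.27). B2m had 3513, 2218 and 2040 CPM untreated and 4035, 4690 and 3723 CPM treated. All 3 treated libraries were above all untreated ones, with a log2 fold change of 0.65 (SE 0.29) that did not pass (edgeR adjusted p = 0.128).

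Of the transport and loading genes, Tapbp, which encodes tapasin, had 141.7, 157.7 and 128.9 CPM without treatment, against 108.7, 109 and 119.5 CPM with it. The groups did not overlap, and the log2 fold change was -0.38 (SE 0.14, edgeR adjusted p = 0.0751). In all, 4 of the 10 genes (H2-D1, B2m, Tapbp and Erap1) had groups without overlap in this fraction. Of the 13181 genes kept over the 18 libraries 46.3% had none either, so 4 of 10 is no more than the background. Tap1 and Tap2, the subunits of the peptide transporter, stood at -0.06 (SE 0.18) and -0.49 (SE 0.24). Psmb8 and Psmb9 stood at -0.28 (SE 0.21) and -0.20 (SE 0.24).

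Nlrc5, the transactivator, had 124.4, 137.9 and 83.81 CPM without treatment, against 136.1, 204.5 and 176.9 CPM with it. One treated library, replicate 11, fell within the untreated range. Its log2 fold change was 0.56 (SE 0.23, edgeR adjusted p = 0.107).

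After the GC correction all 10 genes had positive log2 fold changes in CD3-CD8- cells, between 0.12 for H2-D1 and 0.85 for Nlrc5, with a median of 0.36. The median over all genes was -0.01 after that correction. Tap1 passed (0.75, SE 0.14, edgeR adjusted p = 0.0443) and the other 9 did not. Of all genes 3.25% passed with the correction, 238 higher and 210 lower in treated cells, against 1407 higher and 2115 lower without it. The direction of H2-D1, Tap1, Tap2, Tapbp, Psmb8 and Psmb9 in this fraction therefore depended on whether the correction was made, while that of H2-K1, B2m, Nlrc5 and Erap1 did not.

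**Figure D3:**
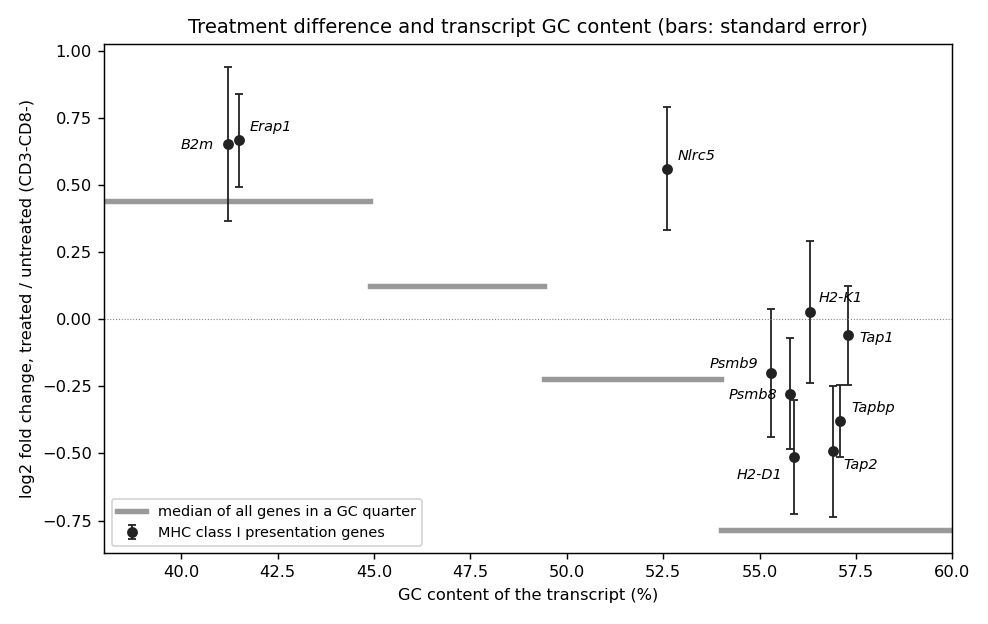
Log2 fold change of treated against untreated CD3-CD8- libraries (bars: standard error) against the GC content of the transcript in percent for the 10 genes; grey lines are the medians of all genes tested in each of 4 equal groups by GC content, drawn within the axis range. The 7 genes of chromosome 17 all lie above the median of the highest GC group, -0.78, and B2m and Erap1 above that of the lowest, 0.44.

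Cell type markers moved with treatment in the CD3-CD8- fraction too. Both CD8 T cell markers were higher, with summed levels of 100.7 to 463.1 CPM untreated and 767.1 to 1420 CPM treated. Of 5 B cell markers 4 were lower (summed levels 1809 to 2405 CPM untreated, 1098 to 1504 CPM treated), and of 6 macrophage and Kupffer cell markers 3 were lower (381.2 to 996.1 and 146.3 to 375.5 CPM). Of 5 neutrophil markers 2 were higher. The 5 summed to 111.8 to 729.5 CPM untreated and to 533.4, 19240 and 1377 CPM in treated replicates 2, 11 and 19. The highest sum is thus that of 1 library, and treated replicate 2 lay within the untreated range. Of 5 T cell markers 3 were higher, and of 4 NK cell markers 1 was higher and 1 lower. Of 4 endothelial markers 1 was lower, and of 5 erythroid markers 2. Of all genes 10.2% passed higher and 15.3% lower. With the GC correction 0 CD8, B cell, neutrophil and erythroid markers passed. Still passing were 1 T cell and 1 NK cell marker (higher) and 1 macrophage and Kupffer cell and 1 endothelial marker (lower). Of all genes 3.25% then passed. The median log2 fold change was 1.89 for CD8 markers (1.91 without the correction), 1.39 for T cell markers (1.30) and -0.71 for B cell markers (-1.16). No marker of these lists was at 0 in a CD3-CD8- library. Their part in the values of the 10 genes was not tested, and in sorted bulk samples fewer cells of a type and less RNA per cell cannot be told apart.

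In CD3+CD8+ T cells all 10 genes had positive log2 fold changes with treatment, none of which passed. The values lay between 0.04 for Psmb8 and 0.59 for Tap2, with a median of 0.37 against -0.03 over all genes tested. Levels of Nlrc5 were 187.8, 186.7 and 133.7 CPM without treatment (replicates 1, 5 and 18) and 198.1, 246.8 and 332.8 CPM with it (replicates 11, 2 and 19). It was the 1 gene of the 10 without overlap between groups, where 9.93% of all genes had none, so 1 of 10 matches the background. Its log2 fold change was 0.57 (SE 0.32, edgeR adjusted p = 0.999).

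By edgeR 0 of the 10 genes passed in CD3+CD8+ cells and 0 had an unadjusted p under 0.05, and DESeq2 and limma voom called 0 of them as well. The background was 0% of 10654 genes, with 624 at an unadjusted p under 0.05. The standard errors of the 10, 0.29 to 0.63, were as large as most of the differences. Untreated replicates 1 and 18 are those rich in ribosomal counts, and without them H2-K1 turned to -0.30, H2-D1 to -0.48, Tap2 to -0.07, Psmb8 to -0.78 and Psmb9 to -0.54. Without them 4 of the 10 genes stayed positive, with a median of -0.08, so the genes named are not all that turned negative. Without treated replicate 19, 4 of the 10 were positive and the median was -0.07, with Tap2 at -0.31 and Psmb8 at -0.69. The positive direction of the 10 genes thus depended on these libraries. B cell markers summed to 1093 CPM in untreated replicate 18 and to 15.35 to 22.38 CPM in the treated libraries, and their part in these values was not tested.

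In CD3+CD8- cells 9 of the 10 genes had negative log2 fold changes and again none passed. They lay between -0.37 for Tap2 and 0.10 for Erap1, with a median of -0.09 against -0.02 over all genes. Levels of B2m were 2238, 3447 and 3386 CPM without treatment (replicates 5, 18 and 6) and 3676, 1839 and 2819 CPM with it (replicates 11, 2 and 19). H2-K1 had 1261, 803.4 and 1674 CPM untreated and 1085, 866.8 and 1783 CPM treated. Both genes overlapped between the groups, and so did the other 8, where 4.42% of all genes had no overlap. By edgeR 0 of the 10 genes passed or had an unadjusted p under 0.05, and DESeq2 and limma voom called 0 of them. The background was 0% of 11197 genes, with 198 at an unadjusted p under 0.05. With the GC correction 8 of the 10 values were positive and none passed. Without untreated replicate 6, the library that holds CD8 markers, 8 of the 10 were positive and the median was 0.20, with Psmb8 at 0.43 and Psmb9 at 0.48. Without treated replicate 2, rich in ribosomal counts, 6 were positive and the median was 0.03, and without treated replicate 11, 5 were positive (median 0.001). Neutrophil markers summed to 2664 to 13780 CPM in the untreated and 9863 to 29880 CPM in the treated libraries, above the 1027 to 2055 and 1353 to 2544 CPM of the T cell markers. None of the 5 neutrophil markers passed (median log2 fold change 1.31), and their part in the values of the 10 genes was not tested.

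**Figure D4:**
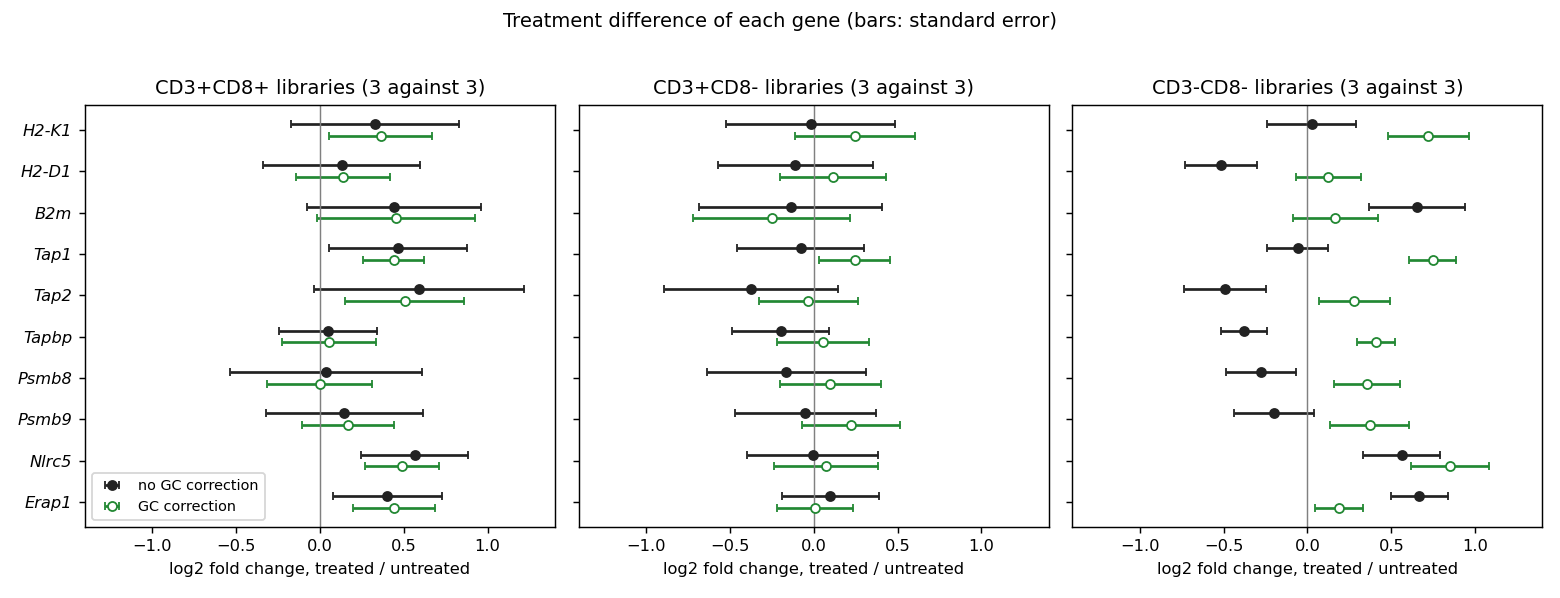
Log2 fold change of treated against untreated libraries for each of the 10 genes in the 3 sorted fractions (points: edgeR estimates, bars: standard error, 3 libraries against 3), filled without and open with the GC correction. In the CD3-CD8- fraction the correction moves H2-D1, Tap1, Tap2, Tapbp, Psmb8 and Psmb9 from below 0 to above it.

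Whether the treatment difference itself differed between fractions was tested in a fit of all 18 libraries. In each of the 3 comparisons 0 of the 10 genes passed by edgeR and 0 had an unadjusted p under 0.05. The background was 0% of 13181 genes in CD3-CD8- against CD3+CD8+, 0% in CD3-CD8- against CD3+CD8- and 0% in CD3+CD8+ against CD3+CD8- cells, with 515, 503 and 478 genes at an unadjusted p under 0.05. DESeq2 called 0 of the 10 in each, and limma voom 1 in the first. The difference for Tap2 between CD3-CD8- and CD3+CD8+ cells was -1.08 (SE 0.83) and that for B2m between CD3-CD8- and CD3+CD8- cells was 0.80 (SE 0.56). With standard errors of 0.30 to 0.83 these values do not show that the fractions respond alike.

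Between fractions, averaged over treatments, Erap1 was lower in CD3-CD8- than in CD3+CD8+ cells by edgeR, and the other 9 genes did not pass. DESeq2 also called 1 of the 10, lower, limma voom 8 (6 higher, 2 lower) and edgeR with the replicate block 2, both lower. Over all genes, limma voom also called many more than edgeR (counts stand in the section on processing). Its 8 of 10 is therefore not to be set against the edgeR share given below. The share of all genes called with the replicate block is not given here. In the CD3+CD8+ libraries Erap1 had 191.6, 148.2 and 118.8 CPM without treatment and 252.5, 249.6 and 132.5 CPM with it. Set beside the CD3-CD8- values above, every untreated CD3-CD8- library lay below every CD3+CD8+ library, and the treated groups overlapped. The log2 difference was -0.61 (SE 0.19, edgeR adjusted p = 0.0464), where 12.8% of all genes passed. The call was lost in 15 of 18 fits that leave out 1 library, with adjusted p-values from 0.0155 to 0.2. It held without untreated CD3+CD8+ replicate 18, treated CD3+CD8+ replicate 19 or treated CD3+CD8- replicate 2. It was also lost with the GC correction (-0.38, SE 0.15, edgeR adjusted p = 0.107), and without the 3 libraries rich in ribosomal counts (-0.55, SE 0.21, adjusted p = 0.148).

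Nlrc5 was also lower on average in CD3-CD8- cells, at 115.4 ± 28.13 CPM untreated and 172.5 ± 34.43 CPM treated (SD, n = 3). It had 169.4 ± 30.95 and 259.2 ± 68.21 CPM in CD3+CD8+ cells. The log2 difference of -0.57 (SE 0.23) did not pass (edgeR adjusted p = 0.113). It passed with the number in the library names as a replicate block (-0.57, SE 0.14, edgeR adjusted p = 0.0139). By limma voom it passed as well (-0.48, SE 0.16, adjusted p = 0.025). It did not pass with no filter (edgeR adjusted p = 0.336) or with only the 12 libraries of both fractions (0.102). No fit that leaves out 1 library called it, with edgeR adjusted p-values from 0.0753 to 0.347. With limma on log2(FPKM + 1) it was 0.06 (SE 0.61). With the GC correction it was -0.72 (SE 0.18, edgeR adjusted p = 0.0121), where 14.3% of all genes passed, and Nlrc5 was then the 1 gene of the 10 that passed. B2m stood at -0.06 (SE 0.28), and the 7 genes of chromosome 17 had positive differences, with H2-D1 at 0.55 (SE 0.27), Psmb8 at 0.50 (SE 0.37) and Psmb9 at 0.47 (SE 0.32).

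Against CD3+CD8- cells, 0 of the 10 genes passed in CD3-CD8- cells by edgeR, with 0 at an unadjusted p under 0.05, where 8.13% of all genes passed. DESeq2 and limma voom also called 0 of the 10. Nlrc5 stood at -0.43 (SE 0.22) and H2-K1 at 0.40 (SE 0.30). Between the T cell fractions 0 of the 10 passed by edgeR, with 1, Erap1, at an unadjusted p under 0.05, where 7.69% of all genes passed. DESeq2 called 0 of the 10 here and limma voom 1. Erap1 was 0.41 higher on the log2 scale in CD3+CD8+ than in CD3+CD8- cells (SE 0.19, edgeR adjusted p = 0.28), and H2-K1 differed by 0.06 (SE 0.30).

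MHC class II genes, which present peptides from outside the cell, give a contrast on the same libraries. All 9 class II genes tested were higher in CD3-CD8- than in CD3+CD8+ cells (median log2 difference 3.05), where 12.8% of all genes passed, and all 9 were higher than in CD3+CD8- cells (2.59), where 8.13% did. With treatment 8 of 9 were lower in the CD3-CD8- fraction (median log2 fold change -1.48), where 15.3% of all genes were lower. In the same libraries 4 of 5 B cell and 3 of 6 macrophage and Kupffer cell markers were lower, and their part in the class II values was not tested. Ciita, the class II transactivator and a relative of Nlrc5, stood at -1.52 (SE 0.16, edgeR adjusted p = 0.00732), and still passed after the GC correction (-0.96, SE 0.14, adjusted p = 0.0334), when 1 of the 9 passed.

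Ratios of genes within a library do not depend on the scaling between libraries. In CD3-CD8- cells the FPKM ratio of H2-K1 to H2-D1 was 1.57, 1.44 and 1.28 without treatment (replicates 1, 5 and 18), against 1.89, 2.11 and 2.39 with it (replicates 11, 2 and 19). The treated libraries all lay above the untreated ones, and the geometric means differed 1.49-fold (log2 0.57). From counts the ratios were 1.21, 1.06 and 0.96 untreated and 1.41, 1.58 and 1.73 treated, with no overlap either. The transcripts of H2-K1 and H2-D1 hold 56.3% and 55.9% GC. They also share sequence, and the part of shared reads in this ratio was not tested. The exact two-sided permutation test gave p = 0.1, the smallest that 3 against 3 libraries can give, and 0.25 after Benjamini-Hochberg adjustment over the 15 ratios tested. In CD3+CD8+ cells the same ratio was 2.17, 1.89 and 1.68 untreated and 2.12, 2.24 and 2.18 treated (exact permutation p = 0.2), and in CD3+CD8- cells 1.76, 1.53 and 1.67 untreated and 1.86, 1.60 and 1.86 treated (exact permutation p = 0.3).

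Ratios of immunoproteasome subunits to those they replace were also higher in every treated than in every untreated CD3-CD8- library for Psmb8 and Psmb9. The ratio of Psmb8 to Psmb5, the constitutive subunit with the same activity, ran from 3.10 to 3.72 in untreated and from 5.37 to 7.78 in treated CD3-CD8- libraries. That of Psmb9 to Psmb6 ran from 0.736 to 0.790 and from 1.38 to 1.95. From counts the latter ran from 1.09 to 1.60 and from 1.72 to 2.63, a log2 difference of 0.59 against 1.12 in FPKM. None of these ranges overlapped, and in FPKM each ratio gave an exact permutation p of 0.1 (adjusted 0.25). The GC content is alike within these pairs: 55.8% for Psmb8 and 56.6% for Psmb5, and 55.3% for Psmb9 and 55.8% for Psmb6. Psmb5 (log2 -1.16, SE 0.20) and Psmb6 (-0.77, SE 0.14) themselves fell with treatment in this fraction (edgeR adjusted p = 0.0108 and 0.0128), calls that the GC correction ended (-0.42 and -0.14). Reads shared with copies of these genes elsewhere in the genome were not tested.

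Psmb10, the last catalytic subunit of the immunoproteasome, went the other way. Its ratio to Psmb7 ran from 0.318 to 0.806 in untreated and from 0.113 to 0.189 in treated CD3-CD8- libraries, and from 0.0402 to 1.28 over the CD3+CD8- libraries. Transcripts of Psmb10 hold 56.5% GC and those of Psmb7 48.7%. The ratio of B2m to the summed heavy chains ran from 1.59 to 2.40 untreated and from 3.12 to 4.19 treated in CD3-CD8- cells, with GC contents that differ (41.2% against 56.3% and 55.9%). All 5 ratios thus had groups without overlap in this fraction, and in FPKM 1 of the other 10 did, Psmb9 to Psmb6 in CD3+CD8- cells. From counts 7 of the 15 did: the same 5, Psmb8 to Psmb5 in CD3+CD8- cells and Psmb9 to Psmb6 in CD3+CD8+ cells. Psmb9 to Psmb6 in CD3+CD8- cells then overlapped. Among single genes, 46.3% had no overlap in CD3-CD8- cells, against 9.93% in CD3+CD8+ and 4.42% in CD3+CD8- cells. The share over ratios of other gene pairs was not computed, so these counts do not show a trait of the genes named here.

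**Figure D5:**
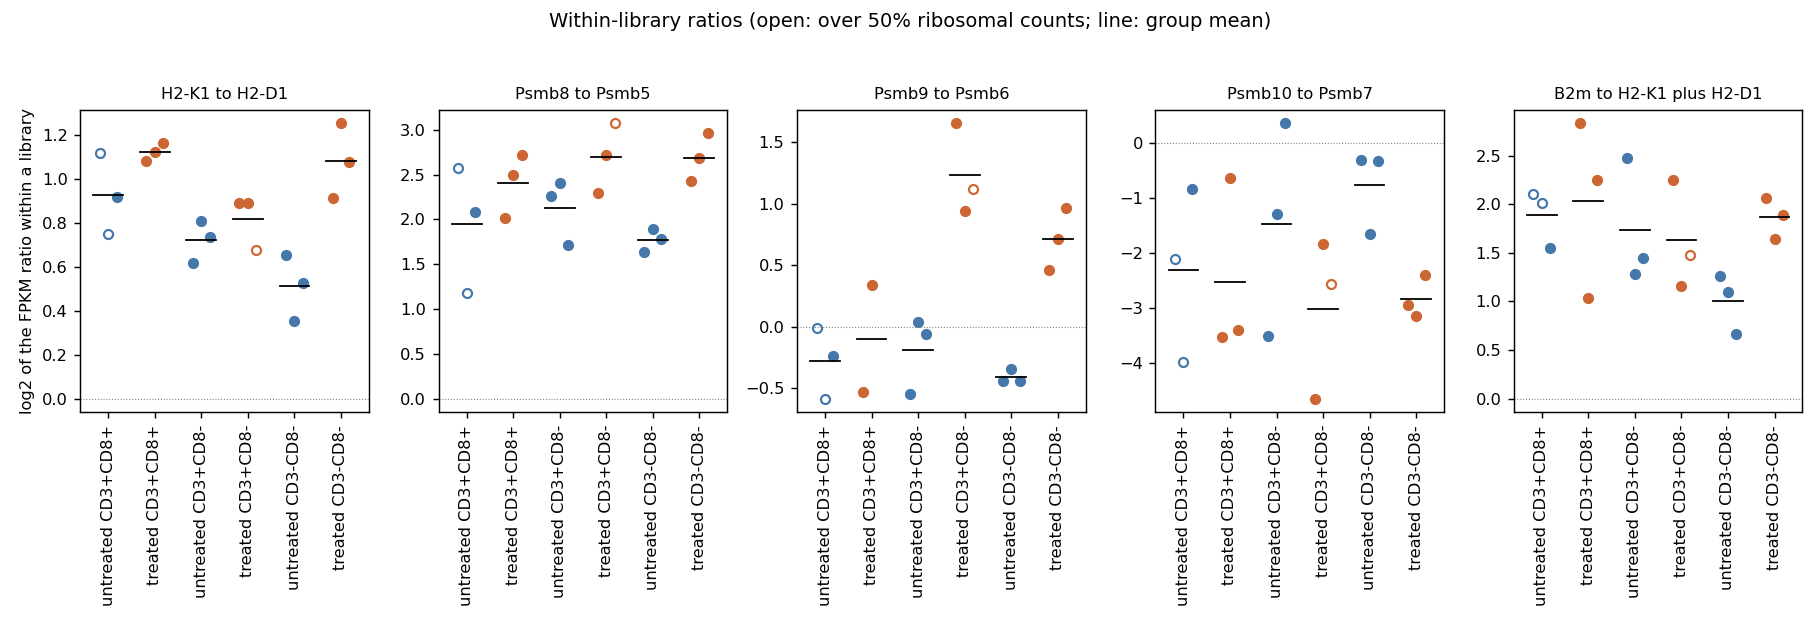
Log2 of 5 within-library FPKM ratios in each library by group (points: libraries, line: group mean, blue untreated, orange treated, open: libraries in which over 50% of counts lay on ribosomal RNA loci). The Psmb9 value listed at 0 is left out. In the CD3-CD8- fraction the treated and untreated libraries do not overlap in any of the 5 panels.

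Other genes of the pathway were counted in lists by role. In CD3-CD8- cells, where 10.2% of all genes passed higher and 15.3% lower, 1 of 14 tested nonclassical class I heavy chain genes was higher with treatment and 2 were lower (median log2 0.17). Mr1, which presents vitamin metabolites to MAIT cells, stood at 0.68 (SE 0.17), H2-K2 at -1.16 (SE 0.23) and H2-M2 at -3.06 (SE 0.69). With the GC correction none of these 3 passed, and 2 others, H2-Q4 (1.01, SE 0.17) and H2-Q6 (0.96, SE 0.18), passed as higher. Both were picked for mention after their values were seen. Of 11 other 20S proteasome subunits 3 were higher and 0 lower (median 0.30), Psma2 at 0.79 (SE 0.16), Psma4 at 0.68 (SE 0.17) and Psma1 at 0.52 (SE 0.16), and 0 passed with the GC correction. Of the 5 immunoproteasome partners and PA28 genes 1, Psmb10, was lower (-1.73, SE 0.35), which did not pass with the GC correction (-1.0, SE 0.32, adjusted p = 0.114). None of 8 chaperones of the endoplasmic reticulum passed (median 0.10).

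Of 7 further peptidases Tpp2 was higher (0.69, SE 0.17) and Thop1, an oligopeptidase of the cytosol, lower (-2.28, SE 0.41). Neither passed with the GC correction (0.20, SE 0.15, and -1.16, SE 0.38). Of 21 enhanceosome and upstream regulator genes 1 was higher and 5 were lower (median -0.21). The gene that was higher was Irf1, which encodes an interferon-induced factor that binds the ISRE, at 0.72 (SE 0.19, edgeR adjusted p = 0.0302). It was named after its values were seen, and it also passed with the GC correction (1.03, SE 0.19, adjusted p = 0.0429). Those lower include Rela (-1.0, SE 0.15) and Nfkb1 (-0.67, SE 0.16), which encode NF-kB subunits, and Ifngr1 (-0.80, SE 0.19), a chain of the interferon gamma receptor. With the GC correction Rela stood at 0.04 and Ifngr1 at -0.85, and neither passed. In CD3+CD8+ and CD3+CD8- cells 0 genes of these lists passed. Between fractions, Ifngr2, the other chain of that receptor, was lower in CD3+CD8+ cells than in the other 2 fractions. The log2 difference was 1.66 (SE 0.26) for CD3-CD8- against CD3+CD8+ cells and -1.78 (SE 0.26) for CD3+CD8+ against CD3+CD8- cells.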

How the data were processed

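The authors deposited whole-number counts per gene and FPKM per gene for 40 library columns, per the file headers; 18 were used and 22 were not. Tools in the submitters' processing notes are HTSeq 0.13.5, Trim Galore 0.6.7, DESeq2 3.20 and Cufflinks 2.2.1. Aligner: not given in the sources used here. The build was taken as GRCm38 because 100% of the 47864 identifiers found in GENCODE vM21 matched in chromosome and 90.48% in start position. Counts went into edgeR 4.0.16 (R 4.3.3): filterByExpr, TMM scaling and the two-sided quasi-likelihood test with Benjamini-Hochberg adjustment over all genes tested, called under 0.05. Treatment was tested within each fraction (6 libraries), and fractions and their treatment effects in 1 fit of 18. The SE is the log2 fold change divided by the root of F. The GC correction is an offset from a lowess curve per library (span 0.3) on transcript GC content. Ratios used FPKM, with a 0 that had counts left out, and exact permutation tests (scipy 1.17.1). Alternatives included limma 3.58.1 on log2(FPKM + 1) and DESeq2 1.42.0. The scripts were tested on simulated data. The 10 genes, the lists and the tests were chosen with earlier results of these data known. Genes named were the 10 everywhere, at most 3 passing genes of smallest p per other list, the 5 most like the mean profile and the 3 most like Nlrc5; other names were chosen after their values were seen. Library totals of 1829155 to 28233682 counts set the precision.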

Additional observations from a re-analysis of the deposited data

How the results depend on the processing

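The number of the 10 genes that passed in treated against untreated CD3-CD8- cells was 1, and 4 with DESeq2, 5 with limma voom, 0 with all 18 libraries in 1 fit, 0 with limma on log2(FPKM + 1) and 0 to 1 without 1 library. Over all genes it was 3522, and 5479 with DESeq2, 6399 with limma voom, 76 with all 18 libraries, 251 with FPKM, 448 with the GC correction and 239 to 3183 without 1 library (239 without untreated replicate 5, 910 without treated replicate 2, 1185 without treated replicate 19). For CD3-CD8- against CD3+CD8+ cells the number was 1 of the 10, and 0 with no filter, with FPKM, with only the 12 libraries of both fractions or without the 3 libraries rich in ribosomal counts, 8 with limma voom, 2 with the replicate block and 0 to 1 without 1 library. Over all genes it was 1692, and 5139 with limma voom and 864 with FPKM. For CD3-CD8- against CD3+CD8- cells it was 1071 over all genes, and 1963 with no filter, 2567 with limma voom, 257 with FPKM, 2233 with the replicate block and 614 to 1565 without 1 library (614 without treated CD3-CD8- replicate 19, 624 without untreated CD3-CD8- replicate 5). For CD3+CD8+ against CD3+CD8- cells it was 1014, and 1613 with limma voom, which called 1 of the 10, and 448 with FPKM.

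Where edgeR called 0 genes, CD3+CD8+ cells had 380 with no filter, 99 with DESeq2, 197 with limma voom, 15 with all 18 libraries, 276 with FPKM and 0 to 180 without 1 library (180 without untreated replicate 5), and CD3+CD8- cells 195 with no filter, 2 with DESeq2 and 82 with FPKM. The treatment effect in CD3-CD8- against CD3+CD8+ cells had 171 with no filter, 1 with DESeq2, 235 with limma voom (1 of the 10), 3 with FPKM and 0 to 2 without 1 library. Against CD3+CD8- cells it had 160 with no filter, 19 with DESeq2 and 2 with FPKM. In CD3+CD8+ against CD3+CD8- cells it had 384 with no filter, 116 with DESeq2, 2 with FPKM and 0 to 127 without 1 library (127 without untreated CD3+CD8+ replicate 5, 79 without treated CD3+CD8- replicate 19, 43 without treated CD3+CD8- replicate 11).

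These log2 values had another sign than in the report and lay more than the SE given there from the reported value, though some were near 0, and apart from alternatives built on fewer libraries the cause was not tested. With the GC correction, treated against untreated CD3-CD8- cells gave 0.12 for H2-D1, 0.75 for Tap1, 0.28 for Tap2, 0.41 for Tapbp, 0.35 for Psmb8 and 0.37 for Psmb9. The treatment effect in CD3-CD8- against CD3+CD8+ cells gave 0.23 for Tap1, 0.27 for Tapbp and -0.32 for Erap1, and against CD3+CD8- cells 0.30 for Tapbp. CD3-CD8- against CD3+CD8+ cells gave -0.16 for Tap1 and -0.39 for Tapbp, and against CD3+CD8- cells -0.11 for Tapbp. Without the libraries rich in ribosomal counts, which leaves 1 untreated CD3+CD8+ library assumed to vary like the other groups, CD3+CD8+ cells gave -0.30 for H2-K1, -0.48 for H2-D1, -0.074 for Tap2, -0.78 for Psmb8 and -0.54 for Psmb9. The treatment effect in CD3-CD8- against CD3+CD8+ cells then gave 0.38 for H2-K1, 0.014 for H2-D1, 0.55 for Psmb8 and 0.39 for Psmb9. In CD3+CD8+ against CD3+CD8- cells it gave -0.58 for H2-K1, -0.61 for H2-D1, -0.074 for B2m, -0.16 for Tap1, -0.10 for Tapbp, -0.88 for Psmb8 and -0.71 for Psmb9. Leaving out 1 library gave ranges in CD3+CD8+ cells of -0.003 to 0.86 for Tap1, -0.31 to 1.37 for Tap2 and -0.69 to 0.88 for Psmb8, lowest without treated replicate 19 and highest without untreated replicate 5. In CD3+CD8- cells they were -0.86 to 0.18 for Tap2, -0.58 to 0.43 for Psmb8 and -0.36 to 0.48 for Psmb9, highest without untreated replicate 6.

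With limma on log2(FPKM + 1), treatment gave 0.38 for Psmb9 and -0.57 for Erap1 in CD3+CD8- cells and 0.30 for Psmb9 in CD3-CD8- cells. Its effect in CD3-CD8- against CD3+CD8+ cells was -1.91 for B2m and -1.76 for Erap1, and against CD3+CD8- cells 0.28 for H2-D1 and 0.44 for Tapbp. CD3-CD8- against CD3+CD8+ cells gave 1.01 for B2m, 0.06 for Nlrc5 and 0.41 for Erap1, and against CD3+CD8- cells 0.027 for Nlrc5 and 0.28 for Erap1. CD3+CD8+ against CD3+CD8- cells gave -0.50 for H2-K1, -0.31 for B2m, -0.29 for Tap1, -0.47 for Tapbp and -0.13 for Erap1. The number of ratios without overlap, 6 of 15, was 7 from counts and 6 to 8 without 1 library.

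Treated and untreated libraries share no number in the library names, so no paired analysis was possible because no number could pair them for the treatment effect within a fraction. Across fractions, same-numbered libraries of a treatment deviated together in 14 of 16 pairs (correlation over 0.1, median 0.35), while 38 pairs of other numbers had a median of -0.13. In 27 of 32 cases a library correlated best with its own number. One treated CD3+CD8- library taken as number 11 has another number in its title and 11 in its library name, and untreated replicate 6 and the treated replicates 19 carry other letters before the number. Not every pair passed, so the block was not used in the main fit. With the replicate block Nlrc5 was lower in CD3-CD8- than in CD3+CD8+ cells (-0.57, edgeR adjusted p = 0.0139). Without the block this difference did not pass in the main fit (edgeR adjusted p = 0.113). The libraries rich in ribosomal counts hold as few as 486461 other counts, which limits what can be seen of Tap2 and Psmb9 there.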
